A study of Mus musculus with 6 samples.

Results

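NRF2, encoded by Nfe2l2, is the transcription factor that controls the main antioxidant and detoxification response of the cell. A set of 10 genes was taken by symbol from the 38561 genes of the count tables, by a rule that names the genes and sets no threshold on their values. It holds Nfe2l2, its inhibitor gene Keap1, and 8 genes known as NRF2 targets, namely Gclc, Gclm, Gpx2, Txnrd1, Srxn1, Nqo1, Ephx1 and Hmox1. The measurements were poly(A) RNA sequencing of small intestinal mucosa from C57BL/6J mice aged 8 to 12 weeks, with 3 pools of genotype Rbm47_IKO and 3 pools of genotype wt. Each pool combined RNA of 3 mice, with females and males together, as the labels have it, whereas the study's text gives wider ranges of age and of mice per pool. The knockout removes Rbm47, the gene of an RNA-binding protein, in the intestinal epithelium, where the villin promoter drives Cre constitutively. The labels call the controls wild type, whereas the study's text describes its controls as Rbm47 fl/fl mice, which carry the floxed allele without Cre.

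Under basal conditions KEAP1 holds NRF2 in the cytoplasm and presents it to a CUL3 ubiquitin ligase, which sends it to the proteasome. Electrophiles and oxidants modify cysteines of KEAP1, NRF2 escapes degradation, enters the nucleus and pairs with small MAF proteins on antioxidant response elements of its target genes. The targets supply glutathione, thioredoxin reduction and NADPH, and they clear quinones, epoxides and heme. In the intestine this pathway meets dietary and microbial electrophiles. Its activity is set mainly by the stability of the protein, which RNA sequencing does not measure.

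The pools held 31560320 to 38951830 counts on genes. Rbm47, the targeted gene, was not lower in the pools labelled Rbm47_IKO. Its level, in CPM (counts scaled to a common library total, here after normalization for composition), stood at 602.7, 624.6 and 619.8 there, above the 459.8, 449.9 and 472.1 of the wt pools, and the log2 difference was 0.42 (SE 0.10, edgeR adjusted p = 0.0751). The count covers the whole gene, so that reads outside a deleted part would still be counted and the value neither checks nor refutes the labels. The study's text reports negligible Rbm47 mRNA and protein in its knockout mice, and higher Nqo1 and Hoxb13 mRNA by quantitative PCR. Nqo1 and Hoxb13 were also higher, without overlap, in the pools labelled Rbm47_IKO, Hoxb13 without passing the test (edgeR adjusted p = 0.0708). They are picked from a longer list of genes that the study's text reports as higher by that method. Others on it did not separate, among them Smoc2, whose pools overlapped (log2 fold change 0.29, edgeR adjusted p = 0.861), and Tff3 (0.06, adjusted p = 0.944). The list was not compared as a set, and these genes do not settle the labels. The pools are written here as the Rbm47-IKO-labelled libraries. Markers of enterocytes and epithelium were high in every pool (9 genes, summed at 30632.1 to 38753.6 CPM), with 5 of the 9 above 0 on the log2 fold change scale and a median of 0.01. Without overlap, 1 of them was higher (Fabp2, 7692.8 to 8531.4 CPM in the Rbm47-IKO-labelled libraries and 4717.7 to 6715.9 CPM in wt) and 2 were lower (Sis, and Apoa4 at 3197.6 to 3548.2 against 4295.2 to 8088.2 CPM), where 11.7% of all genes tested were higher and 11.6% lower without overlap. No marker gene that was tested passed. The 5 pancreatic acinar genes, Car1 and Aqp8 did not pass the filter on low counts and were not tested. Of 7 ileum and colon genes, Car1 was at 0 in all 6 pools and Aqp8 was near 0, and 4 of the 5 tested had a log2 fold change above 0. Fabp6 of the ileum was at 31.7, 39.8 and 18.6 CPM against 17.2, 3.98 and 2.55 CPM in wt, and Hoxb13, a gene of the distal gut, was at 2.6, 3.54 and 5.18 CPM against 0, 0.553 and 0.302 CPM, both without overlap. The sum of all 7 overlapped between genotypes (63.2 to 83.0 against 23.8 to 101.3 CPM). Of 5 proximal small intestine genes, 4 were also above 0 (median 0.19), and Gata4 (154.1 to 180.7 against 108.3 to 146.9 CPM) and Slc40a1 (7.26 to 8.73 against 5.16 to 6.97 CPM) were higher without overlap. All 5 plasma and B cell genes had values below 0 (median -0.68), with sums of 55.3 to 109.3 against 91.9 to 147.5 CPM, and 2 of them, Cd79a and Cd79b, were lower without overlap. All 5 erythroid genes had values above 0 (median 0.91), with sums of 6.01 to 16.1 against 5.54 to 8.43 CPM. Of 5 stem and crypt genes 3 were above 0, and Olfm4 was lower without overlap (12.3 to 16.8 against 20.7 to 79.7 CPM). The part of gut region or of these cell types in the results below was not tested. A pair of pools stood apart in smooth muscle RNA (6 genes). The sum was 3301.9 CPM in Rbm47-IKO-labelled pool 3 and 2802.7 CPM in wt pool 2, against 90.7 to 585.7 CPM in the other 4 pools. Rbm47-IKO-labelled pool 3 also held 17.5 CPM of 5 pancreatic acinar genes, whose sum was at most 0.412 CPM elsewhere. The sum of 4 Y-linked genes ran from 53.0 to 143.7 CPM in the Rbm47-IKO-labelled libraries and from 87.9 to 220.3 CPM in wt. In such bulk RNA, a change in the number of cells of a type and a change in RNA per cell cannot be told apart.

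All 10 genes passed the filter on low counts. With the threshold at 0.05 for the Benjamini-Hochberg adjusted p over 16425 genes, Nqo1 was higher in the Rbm47-IKO-labelled libraries and the other 9 did not pass. Over all genes tested, 2.70% passed, 1.45% higher and 1.25% lower. An unadjusted edgeR p under 0.05 was found for 5 of the 10 (Nqo1, Gclm, Gclc, Ephx1 and Gpx2), against 16.8% of all genes. Every Rbm47-IKO-labelled library lay above every wt library for 3 of the 10 (Nqo1, Gclc and Ephx1), against 11.7% of all genes, and below every wt library for 1 (Gclm), against 11.6%. The median log2 fold change was 0.43 over the 10 genes, beside -0.01 over all genes tested. With 10 genes these shares are a description, and no test was made over the set.

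The sequence upstream of 5 of these genes is shown so that the letters of the antioxidant response element can be seen beside the expression values. The sequences are RefSeq promoter windows on GRCm38.p6, up to 250 bases before a transcript start, read 5′ to 3′ on the strand of the gene, and they leave out bases that the tables count as exon. Nqo1 (chr8:107403207-107403455, minus strand) is the member that passed the test. Nfe2l2 (chr2:75704664-75704913, minus strand), Gclm (chr3:122245307-122245556, plus strand) and Txnrd1 (chr10:82858956-82859205, plus strand, 1 of its 3 windows) hold the element core. Srxn1 (chr2:152105274-152105515, plus strand) holds a related motif. Capitals mark a match.
Nqo1: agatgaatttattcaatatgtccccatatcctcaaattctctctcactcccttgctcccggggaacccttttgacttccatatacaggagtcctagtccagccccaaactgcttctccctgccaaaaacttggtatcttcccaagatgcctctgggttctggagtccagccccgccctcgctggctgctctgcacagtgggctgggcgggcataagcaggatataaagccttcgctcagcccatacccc
Nfe2l2: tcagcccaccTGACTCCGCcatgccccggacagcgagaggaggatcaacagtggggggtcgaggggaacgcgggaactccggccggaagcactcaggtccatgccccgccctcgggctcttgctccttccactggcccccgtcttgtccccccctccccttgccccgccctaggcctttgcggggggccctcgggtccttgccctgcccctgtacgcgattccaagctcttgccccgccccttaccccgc
Gclm: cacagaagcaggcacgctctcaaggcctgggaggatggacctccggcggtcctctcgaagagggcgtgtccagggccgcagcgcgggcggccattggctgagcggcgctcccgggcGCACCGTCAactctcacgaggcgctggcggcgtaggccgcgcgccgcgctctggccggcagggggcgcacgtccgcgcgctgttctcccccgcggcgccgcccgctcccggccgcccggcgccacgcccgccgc
Txnrd1: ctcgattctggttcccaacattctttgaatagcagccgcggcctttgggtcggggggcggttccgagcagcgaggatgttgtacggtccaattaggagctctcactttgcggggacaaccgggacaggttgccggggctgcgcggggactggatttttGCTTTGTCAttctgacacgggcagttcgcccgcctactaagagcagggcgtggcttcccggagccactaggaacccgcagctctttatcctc
Srxn1: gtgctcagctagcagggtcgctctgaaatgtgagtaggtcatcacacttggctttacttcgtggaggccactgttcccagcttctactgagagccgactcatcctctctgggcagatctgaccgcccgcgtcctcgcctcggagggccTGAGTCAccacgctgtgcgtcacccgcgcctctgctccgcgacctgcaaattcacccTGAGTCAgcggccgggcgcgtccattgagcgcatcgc

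A window was found for 8 of the 10 genes, Hmox1 and Gclc having no entry in the table. The core motif searched was TGACNNNGC, on both strands, where N is any base. It was present at -240 to -232 from the start of Nfe2l2 (TGACTCCGC), at -134 to -126 of Gclm (TGACGGTGC on the opposite strand) and at -92 to -84 of Txnrd1 (TGACAAAGC on the opposite strand). These are 3 of 8 genes, or 37.5%, where 13.6% of the 11717 tested genes with a window and 11.5% of all 27025 genes held a match. The second motif searched was TGAGTCA on both strands, the consensus of AP-1, whose letters can lie inside an antioxidant response element. Srxn1 held 2 copies, at -102 to -96 and at -45 to -39, and no other member with a window held it, against 4.28% of tested genes. In the windows of Nqo1, Keap1, Ephx1 and Gpx2 neither motif was found, which says only that these letters are not within these bases. Of the 3 genes with the core motif, none passed the test between genotypes, and Gclm was the only 1 whose pools did not overlap.

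**Figure D1:**
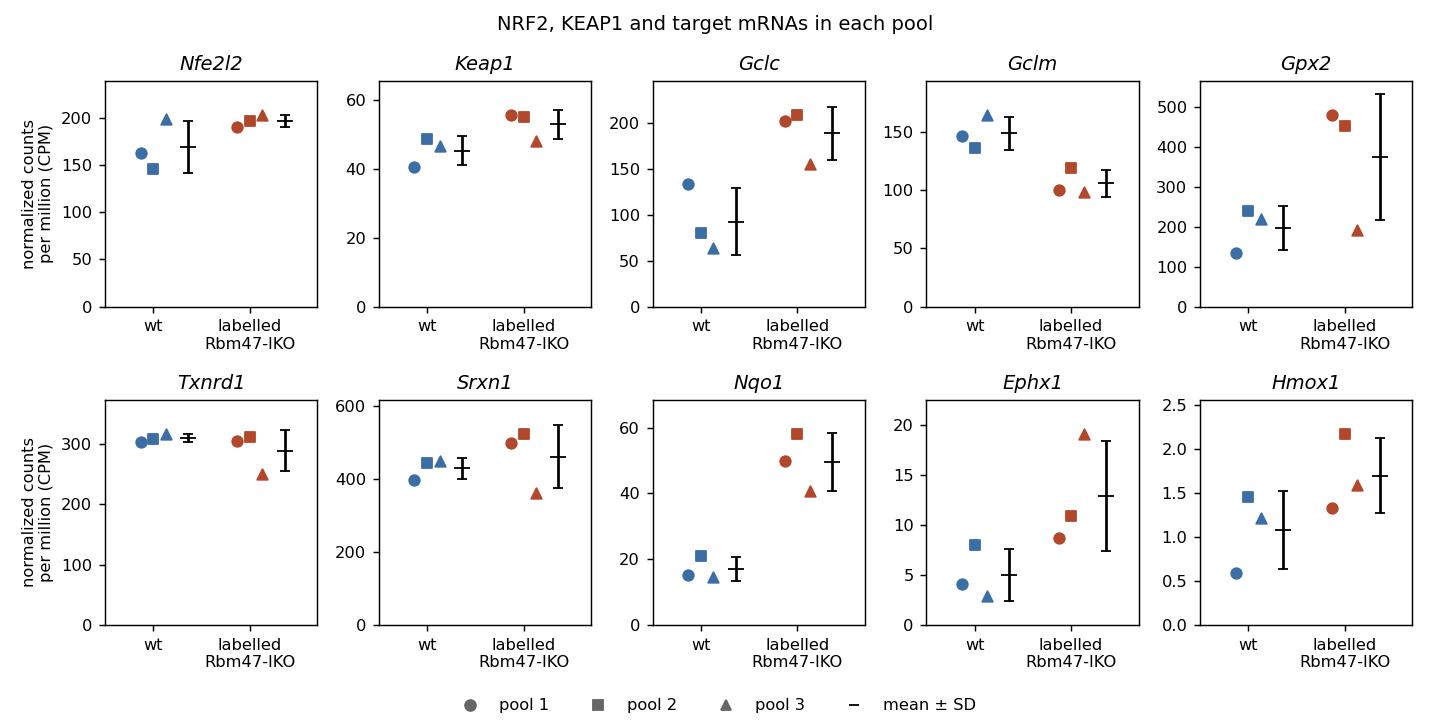
Level of each of the 10 mRNAs in every pool, in normalized CPM on axes that start at 0. Points are pools (marker shape gives the pool number) and bars are the mean ± SD of 3 pools. Nqo1, Gclc and Ephx1 had all Rbm47-IKO-labelled libraries above all wt libraries, and Gclm had them all below.

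The regulator pair differed little between genotypes. Nfe2l2 (ENSMUSG00000015839, chromosome 2, 75675513 to 75704641, minus strand) was at 190.3, 197.4 and 203.1 CPM in the Rbm47-IKO-labelled libraries and at 163.0, 146.2 and 199.4 CPM in wt. The groups overlapped, since wt pool 3 lay above Rbm47-IKO-labelled pools 1 and 2. The log2 fold change was 0.22 (SE 0.13, 95% interval -0.09 to 0.52, edgeR adjusted p = 0.485), so that the interval holds no decrease beyond -0.09 and no increase beyond 0.52. Keap1 (ENSMUSG00000003308, chromosome 9, 21229730 to 21239332, minus strand) was at 55.6, 55.2 and 48.1 CPM against 40.6, 48.6 and 46.8 CPM. Rbm47-IKO-labelled pool 3 fell below wt pool 2, and the log2 fold change was 0.22 (SE 0.11, 95% interval -0.04 to 0.49, edgeR adjusted p = 0.384). A stretch of 510 bases of Keap1 overlaps Gm16754 on the opposite strand, which had at most 82 counts in a pool, and the use of strand in counting is not given in the sources used here. Neither gene passed the threshold in any of the 16 alternative settings.

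Glutathione is made from cysteine, glutamate and glycine, and its slow step is glutamate-cysteine ligase, an enzyme of a catalytic subunit (Gclc) and a modifier subunit (Gclm). The estimates for these subunits had opposite signs, and neither passed the test. Gclc (ENSMUSG00000032350, chromosome 9, 77754535 to 77794485, plus strand) was at 202.3, 208.4 and 155.9 CPM in the Rbm47-IKO-labelled libraries and at 133.3, 80.6 and 63.9 CPM in wt. The groups did not overlap, and their means (188.9 ± 28.7 and 92.6 ± 36.2, SD, n = 3) stood at a ratio of 2.04. Gclc had a log2 fold change of 1.03 (SE 0.27, 95% interval 0.41 to 1.65), but it did not pass the threshold (edgeR adjusted p = 0.0956). It passed in 2 of the 16 alternative settings, over which its log2 fold change ran from 0.82 to 1.39 and its adjusted p reached 0.345. The 2 were DESeq2 (adjusted p = 0.00127) and edgeR without wt pool 1, the highest of the controls (1.39, adjusted p = 0.0227).

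Gclm (ENSMUSG00000028124, chromosome 3, 122245557 to 122269984, plus strand) was at 100, 119.3 and 98.5 CPM in the Rbm47-IKO-labelled libraries and at 146.2, 136.1 and 164.0 CPM in wt. All 3 pools of the former lay below all 3 of the latter, with means of 105.9 ± 11.6 and 148.8 ± 14.1 (SD, n = 3) and a ratio of 0.712. Gclm had a log2 fold change of -0.49 (SE 0.12, 95% interval -0.78 to -0.20, edgeR adjusted p = 0.0896). This too missed the threshold and passed with DESeq2 (adjusted p = 0.0147), as well as in edgeR with library size as the only scaling (-0.50, adjusted p = 0.0432). A stretch of 244 bases of Gclm is shared with Gm6061 on the same strand, which had 0 counts in every pool. The handling of reads in shared bases is not given in the sources used here.

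Because both subunits were counted in the same pools, their ratio does not depend on normalization. Per length of gene, Gclc reads exceeded Gclm reads 3.27, 2.83 and 2.56 times in the Rbm47-IKO-labelled libraries. In wt the ratio was 1.48, 0.959 and 0.631. The means were 2.89 ± 0.359 and 1.02 ± 0.426 (SD, n = 3), and every Rbm47-IKO-labelled library was above every wt library (two-sided exact permutation test on the log2 ratio, p = 0.1, the smallest that 3 pools against 3 allow). The wt pools lay on either side of 1, a mark that depends on the gene lengths used. The ratio of Nfe2l2 to Keap1 showed no such separation, with 4.03, 4.21 and 4.98 against 4.73, 3.54 and 5.02 (means 4.41 ± 0.502 and 4.43 ± 0.782, exact permutation p = 1). These ratios, and another pair given below, were chosen after the values were seen, 4 in all, and none can pass a threshold of 0.05 at this number of pools.

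**Figure D2:**
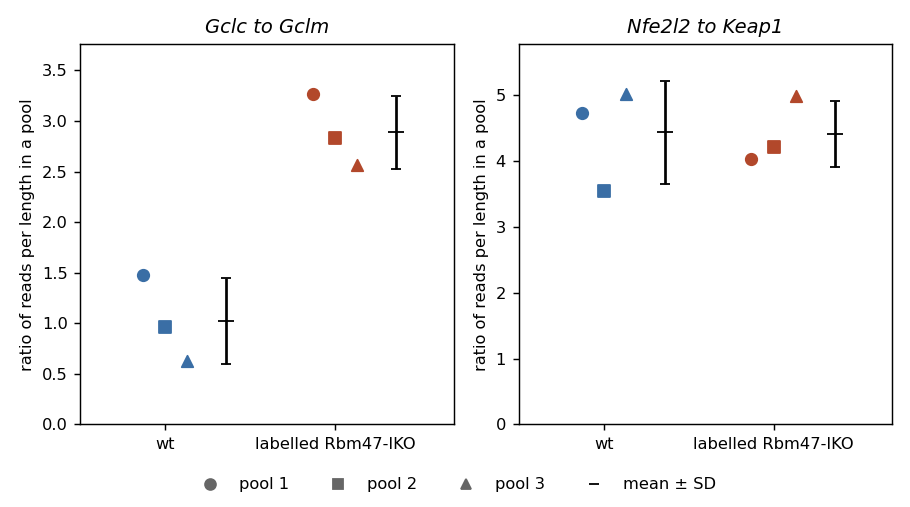
Ratio of reads per length of Gclc to Gclm (left) and of Nfe2l2 to Keap1 (right) in each pool, with the mean ± SD of 3 pools as bars. The Gclc to Gclm ratio was 2.56 to 3.27 in the Rbm47-IKO-labelled libraries and 0.631 to 1.48 in wt, whereas the Nfe2l2 to Keap1 ratios overlapped.

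Gpx2, the gastrointestinal glutathione peroxidase that uses glutathione to reduce hydroperoxides, had the largest SD in CPM of the 10. Gpx2 (ENSMUSG00000042808, chromosome 12, 76792335 to 76795554, minus strand) was at 478.4, 450.9 and 192.6 CPM in the Rbm47-IKO-labelled libraries and at 133.4, 238.6 and 218.3 CPM in wt. Rbm47-IKO-labelled pools 1 and 2 lay far above the controls, and pool 3 lay below wt pools 2 and 3. Its log2 fold change was 0.93 (SE 0.36, 95% interval 0.09 to 1.76, edgeR adjusted p = 0.246). It was 1.39 (adjusted p = 0.0362) without the pools richest in smooth muscle, Rbm47-IKO-labelled pool 3 and wt pool 2, and it passed with DESeq2 (adjusted p = 0.0441). The part of muscle RNA in the low value of pool 3 was not tested.

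Thioredoxin reductase 1 (Txnrd1) returns electrons from NADPH to thioredoxin, and sulfiredoxin (Srxn1) restores overoxidized peroxiredoxins. Txnrd1 (ENSMUSG00000020250, chromosome 10, 82859206 to 82897724, plus strand) was at 304.8, 312.1 and 249.7 CPM in the Rbm47-IKO-labelled libraries and at 303.9, 308.4 and 316.6 CPM in wt. Apart from the lower value of Rbm47-IKO-labelled pool 3, these levels lay within a few percent of one another. Txnrd1 had a log2 fold change of -0.10 (SE 0.12, 95% interval -0.38 to 0.18, edgeR adjusted p = 0.773). Srxn1 (ENSMUSG00000032802, chromosome 2, 152105516 to 152111376, plus strand) was at 497.9, 523.8 and 362.9 CPM against 396.3, 444.7 and 448.3 CPM. Here Rbm47-IKO-labelled pools 1 and 2 were the highest of the 6 and pool 3 the lowest, for a log2 fold change of 0.10 (SE 0.16, 95% interval -0.26 to 0.47, edgeR adjusted p = 0.835). For both genes the interval leaves out a doubling. Neither passed in any of the 16 alternative settings. The ratio of Txnrd1 to Srxn1 reads per length was 0.505, 0.492 and 0.568 in the Rbm47-IKO-labelled libraries and 0.633, 0.572 and 0.583 in wt (exact permutation p = 0.1, the smallest possible), with 0.568 and 0.572 as the nearest values of the groups.

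Nqo1, the quinone reductase widely used as a readout of NRF2 activity, was the member that passed the test. Nqo1 (ENSMUSG00000003849, chromosome 8, 107388225 to 107403206, minus strand) was at 50.0, 58.1 and 40.6 CPM in the Rbm47-IKO-labelled libraries and at 15.1, 21.1 and 14.6 CPM in wt. These levels rest on 1731, 2202 and 1325 counts against 512, 799 and 531. The lowest Rbm47-IKO-labelled library was well above the highest wt library, and the means had a ratio of 2.93. The log2 fold change was 1.55 (SE 0.19, 95% interval 1.11 to 2.0, edgeR adjusted p = 0.0119), and Nqo1 ranked 72 of 16425 genes by p. It passed in the 10 alternative settings that kept to other choices than leaving out a single pool, among them the Y-linked covariate (1.35, adjusted p = 0.0404) and the removal of both muscle-rich pools (1.86, adjusted p = 0.00687). The call was lost without Rbm47-IKO-labelled pool 1 (adjusted p = 0.0651), without Rbm47-IKO-labelled pool 2 (adjusted p = 0.0834) and without wt pool 3 (adjusted p = 0.0621), with log2 fold changes of 1.42 to 1.74 over the 6 omissions of a pool. Relative to Nfe2l2 in the same pool, Nqo1 reads per length were 0.642, 0.720 and 0.488 in the Rbm47-IKO-labelled libraries and 0.226, 0.352 and 0.179 in wt (exact permutation p = 0.1, the smallest possible).

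Ephx1, the microsomal epoxide hydrolase, opens reactive epoxides to diols. Ephx1 (ENSMUSG00000038776, chromosome 1, 180976155 to 181020904, minus strand) was at 8.72, 10.9 and 19.1 CPM in the Rbm47-IKO-labelled libraries and at 4.09, 7.98 and 2.94 CPM in wt. The groups did not overlap, although Rbm47-IKO-labelled pool 1 and wt pool 2 lay close together. The log2 fold change was 1.37 (SE 0.43, 95% interval 0.38 to 2.36, edgeR adjusted p = 0.152), and the means stood at a ratio of 2.58. The highest pool of each genotype for Ephx1 was its pool richest in smooth muscle, and without those 2 pools the log2 fold change was 1.48 (adjusted p = 0.0353). DESeq2 gave an adjusted p of 0.0103.

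Hmox1, the inducible heme oxygenase that splits heme into biliverdin, iron and carbon monoxide, was the member with the lowest level. Hmox1 (ENSMUSG00000005413, chromosome 8, 75093591 to 75100596, plus strand) had 46, 82 and 52 counts in the Rbm47-IKO-labelled libraries and 20, 55 and 44 in wt. In CPM these are 1.33, 2.17 and 1.59 against 0.588, 1.45 and 1.21, so that the lowest Rbm47-IKO-labelled library fell below wt pool 2. The log2 fold change was 0.65 (SE 0.40, 95% interval -0.28 to 1.57, edgeR adjusted p = 0.486), an interval that holds both no change and more than a doubling. Hmox1 is also strongly expressed by macrophages, and the summed level of 8 macrophage genes was 63.6, 83.3 and 82.8 CPM against 62.9, 112.4 and 58.3 CPM. In each genotype the pool with the highest macrophage sum was also the pool with the highest Hmox1. The part of macrophage RNA in Hmox1 was not tested.

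**Figure D3:**
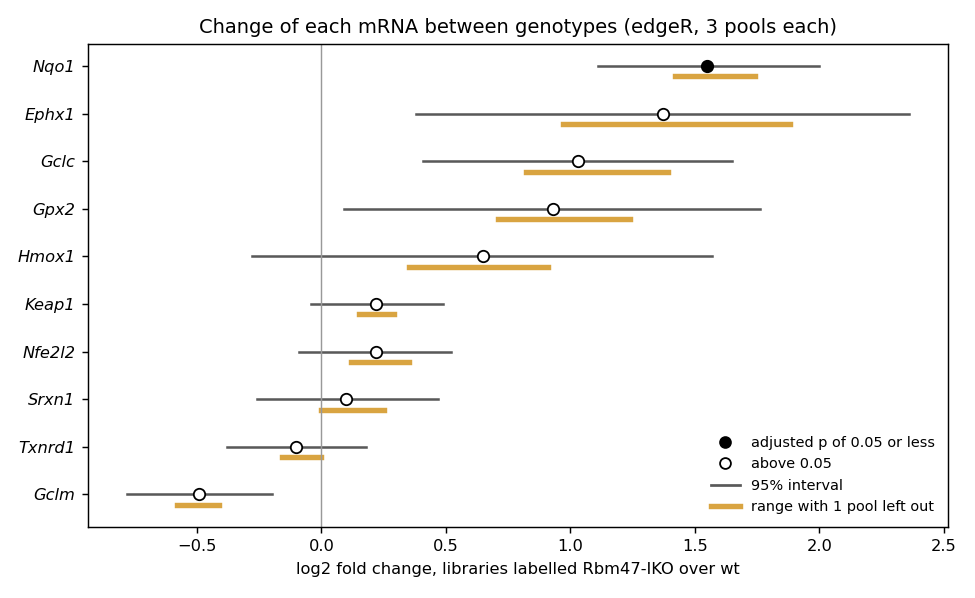
Log2 fold change of the 10 mRNAs, Rbm47-IKO-labelled libraries over wt, from edgeR with 3 pools each. Circles are estimates (filled for an adjusted p of 0.05 or less), grey lines are 95% intervals and yellow lines span the estimates with 1 pool left out in turn. Nqo1 at 1.55 is the filled circle, and Gclm at -0.49 is the lowest.

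Levels can be set against one another only per length of gene, as RPKM, which is the normalized CPM divided by the length of the gene in kilobases. In wt, Gpx2 (184.4 ± 52.3, SD, n = 3) and Srxn1 (152.4 ± 10.3) came first and overlapped each other. Txnrd1 followed at 90.6 ± 1.88. Nfe2l2 (44.7 ± 7.15), Gclc (27.1 ± 10.6) and Gclm (26.8 ± 2.54) formed a middle group in which each overlapped its neighbour. Nqo1 (10.9 ± 2.32) and Keap1 (10.1 ± 0.938) overlapped as well, and Ephx1 (2.5 ± 1.32) and Hmox1 (0.501 ± 0.205) stood apart at the low end. Gpx2 and Srxn1 were at the 98.6 and 98.3 percentiles of the genes tested, and Hmox1 was at the 18.6 percentile.

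The order of the means differed in the Rbm47-IKO-labelled libraries by the places of Gclc and Nqo1, of which Gclc overlapped Nfe2l2 in both genotypes. Gpx2 (350.5 ± 147.7), Srxn1 (163.7 ± 30.6) and Txnrd1 (84.5 ± 9.97) again led, with Gpx2 and Srxn1 overlapping. Gclc (55.2 ± 8.38) was then level with Nfe2l2 (51.9 ± 1.68), with overlapping pools. Nqo1 (31.9 ± 5.66) stood above Gclm (19.1 ± 2.10) without overlap, whereas in wt Gclm stood above Nqo1 without overlap. Nqo1 moved from the 75.8 to the 90.5 percentile of tested genes. Keap1 (11.8 ± 0.949), Ephx1 (6.44 ± 2.72) and Hmox1 (0.785 ± 0.198) kept the last 3 places.

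**Figure D4:**
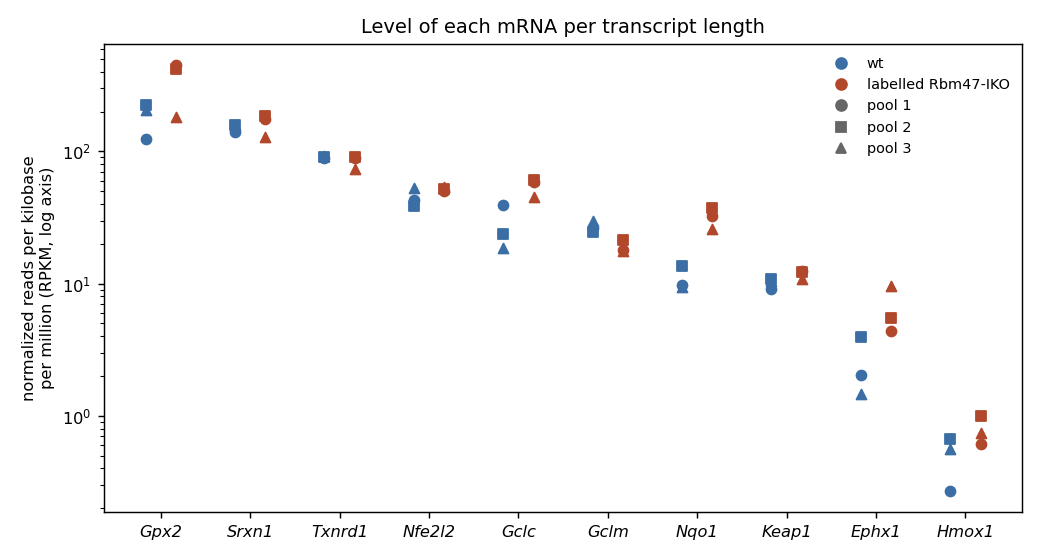
Level of each mRNA per length of gene in every pool, in normalized RPKM on a log axis, with genes ordered by their wt mean. Blue points are wt and red points are the Rbm47-IKO-labelled libraries. Gclm lies above Nqo1 in wt and below it in the Rbm47-IKO-labelled libraries.

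Of 16 further genes whose proteins pair with NRF2, compete with it or govern its turnover, 15 passed the filter on low counts and none passed the test with edgeR, DESeq2 or limma-voom, against 2.70% of all genes in edgeR. Every Rbm47-IKO-labelled library lay above every wt library for 2 of the 15, against 11.7% of all genes. An unadjusted edgeR p under 0.05 was found for 1 of the 15, against 16.8% of all genes, namely Mafg, which encodes a small MAF partner of NRF2. Mafg was at 60.9, 56.5 and 61.6 CPM in the Rbm47-IKO-labelled libraries and at 45.0, 39.7 and 52.4 CPM in wt, without overlap (log2 fold change 0.38, SE 0.12, edgeR adjusted p = 0.163). Sqstm1 encodes p62, which binds KEAP1 and is itself an NRF2 target. It was at 206.3, 257.7 and 206.7 CPM against 122.1, 192.0 and 184.3 CPM, also without overlap (0.43, SE 0.19, adjusted p = 0.312). Cul3, the scaffold of the ligase that takes NRF2 from KEAP1, had a log2 fold change of -0.31 (SE 0.14, adjusted p = 0.323). Palb2, whose product binds KEAP1, had -0.34 (SE 0.28, adjusted p = 0.633). As further examples, chosen after their values were seen, the repressor gene Bach1, which competes for the same DNA elements, had 0.15 (adjusted p = 0.64) and the NRF2 relative Nfe2l1 had 0.08 (adjusted p = 0.789). The median over the 15 genes was 0.02. Nfe2, the relative that was not tested, had at most 10 counts in a pool.

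A wider list of 48 genes commonly counted as NRF2 targets, with the 10 genes above left out, gave 46 genes past the filter. Of these, 5 were higher and 1 was lower in the Rbm47-IKO-labelled libraries at an edgeR adjusted p of 0.05 or less, against 1.45% and 1.25% of all genes. A log2 fold change above 0 was found for 37 of the 46, beside 49.3% of all genes tested, and the median was 0.39 beside -0.01. Every Rbm47-IKO-labelled library lay above every wt library for 16 of them (11.7% of all genes) and below for 2 (11.6%). An unadjusted p under 0.05 was found for 19 (16.8%). The list was chosen with earlier results of these data known, and it counts close paralogs of the Gsta and Gstm families as separate genes. These shares are therefore a description, and no test was made over the list. Among the 38 of the 48 genes with a promoter window, 26.3% held TGACNNNGC and 18.4% held TGAGTCA, against 13.6% and 4.28% of tested genes with a window.

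Glutathione supply and use held 3 of the 5 higher genes, among 13 tested, where 1.45% of all genes were higher. Gsta3, Gsta4 and Gsta1 encode alpha-class glutathione transferases, which join glutathione to electrophiles. Gsta4 was at 39.3, 61.8 and 65.7 CPM in the Rbm47-IKO-labelled libraries and at 11.8, 21.9 and 11.1 CPM in wt (log2 fold change 1.90, SE 0.31, edgeR adjusted p = 0.0258). Gsta3 was at 10.1, 18.7 and 20.2 CPM against 3.32, 4.93 and 2.63 CPM (2.17, SE 0.33, adjusted p = 0.0214). Gsta1 was at 12.3, 18.8 and 17.2 CPM against 2.85, 6.64 and 4.23 CPM (1.81, SE 0.32, adjusted p = 0.034). In none of the 3 did the groups overlap. They are close paralogs, the handling of reads that match several genes is not given in the sources used here, and the share of each gene is uncertain. The mu-class transferase genes Gstm1 (1.46, SE 0.44, adjusted p = 0.135), Gstm3 (1.23, SE 0.38, adjusted p = 0.15), Gstm2 (1.02, SE 0.42, adjusted p = 0.28) and Gstm4 (0.81, SE 0.35, adjusted p = 0.295) had unadjusted p of 0.0109 to 0.0486 and did not pass. Gstm1 and Gstm4 had no overlap between groups. Gstm3 passed with DESeq2 and with the pool number as a replicate block (100 of all genes called). In edgeR, Gstm1 and Gstm2 passed without the muscle-rich pools (327 of all genes called). Without wt pool 2, Gstm1, Gstm2 and Gstm3 passed (431 of all genes called). These too are paralogs. The 6 remaining tested genes of this group did not pass either, among them the glutathione synthetase gene Gss (0.43, adjusted p = 0.304), the glutathione reductase gene Gsr (-0.03, adjusted p = 0.975) and the cystine carrier gene Slc7a11 (-0.38, adjusted p = 0.644). Genes named here and below that did not pass were chosen as examples after their values were seen.

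In carbonyl and quinone reduction, 7 genes were tested, with 1 higher and 1 lower, against 1.45% and 1.25% of all genes. Cbr3, a carbonyl reductase gene, was low throughout, with 55, 112 and 50 counts in the Rbm47-IKO-labelled libraries and 12, 24 and 15 in wt. The groups did not overlap (log2 fold change 2.11, SE 0.41, edgeR adjusted p = 0.043). Ptgr1 encodes prostaglandin reductase 1, which reduces the double bond of reactive aldehydes and ketones. It fell, from 166.5, 101.3 and 105.0 CPM in wt to 35.2, 45.8 and 51.5 CPM, without overlap (-1.49, SE 0.23, adjusted p = 0.0214). Ptgr1 and Gclm were thus lower beside higher Nqo1, Gsta1, Gsta3, Gsta4 and Cbr3, Gclm without passing the test. Aldh1a1, which oxidizes retinal and other aldehydes, had 1.07 (adjusted p = 0.154).

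Conjugation and export held the remaining gene that passed, 1 of 7 tested, where 1.45% of all genes were higher. This was Abcc3, which encodes a basolateral exporter of glucuronides and bile acids. It was at 128.2, 164.0 and 133.4 CPM in the Rbm47-IKO-labelled libraries and at 85.9, 70.3 and 77.0 CPM in wt, without overlap (log2 fold change 0.87, SE 0.13, edgeR adjusted p = 0.0221). The apical exporter gene Abcc2 had 0.57 (adjusted p = 0.12). Of the 6 genes of NADPH supply none passed in the main edgeR test, and 3 of them had an unadjusted p under 0.05, against 16.8% of all genes. G6pdx (0.82, adjusted p = 0.121) and Pgd (0.57, adjusted p = 0.0979) encode the NADPH-forming steps of the pentose phosphate pathway, and Taldo1 (-0.44, adjusted p = 0.134) encodes a later enzyme of the same route. With DESeq2, which called 1243 of all genes against 443 in edgeR, G6pdx, Pgd and Taldo1 passed, as did Abcc2, Aldh1a1 and Blvrb. In edgeR without the muscle-rich pools, which called 327 of all genes, G6pdx, Pgd and Aldh1a1 passed. Without wt pool 2 (431 of all genes called) Aldh1a1 and Blvrb passed. The thioredoxin genes gave medians near 0 (0.01 over 3 genes), with Prdx1 at 0.47 (adjusted p = 0.312). The 5 genes of heme and iron handling ran from 0.08 to 0.68, the latter being Blvrb (adjusted p = 0.113), a biliverdin reductase gene.

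**Figure D5:**
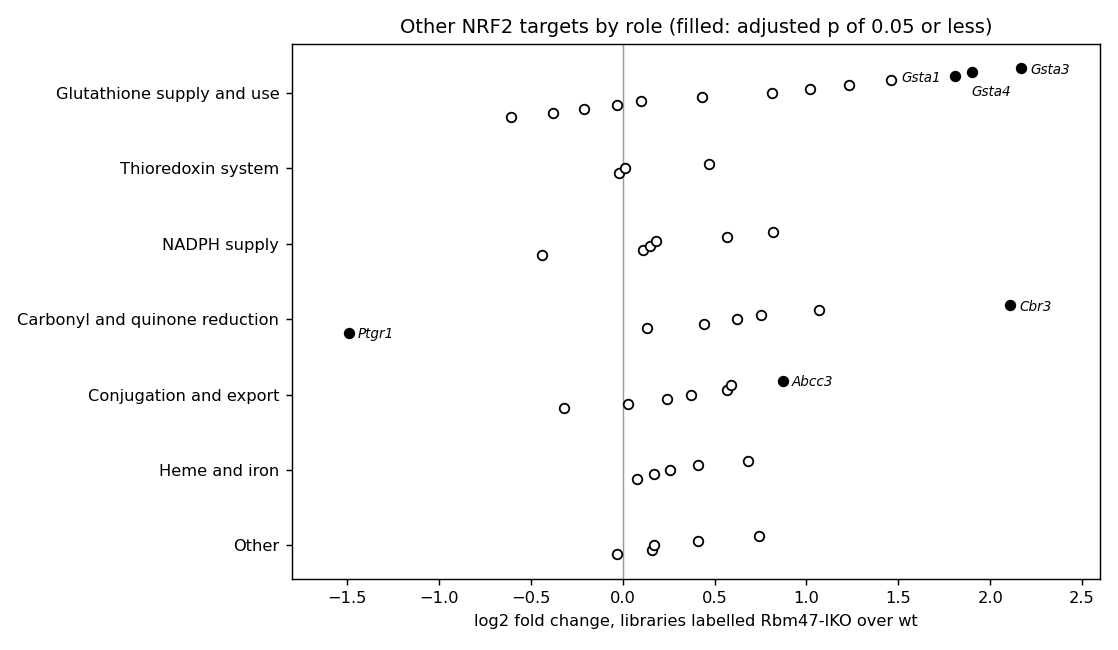
Log2 fold change of the 46 other NRF2 target genes tested, Rbm47-IKO-labelled libraries over wt, grouped by role. Each circle is a gene (edgeR, 3 pools each) and filled circles have an adjusted p of 0.05 or less. Gsta3, Gsta4, Gsta1, Cbr3 and Abcc3 are filled on the right and Ptgr1 is filled on the left.

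The calls of the 6 other targets depended on single pools, on a covariate for sex composition and on a block for pool number. Without Rbm47-IKO-labelled pool 2 none of the 6 passed, and without Rbm47-IKO-labelled pool 3 or wt pool 3 none passed either. In those 3 fits the genes called over all 16425 were 0, 119 and 11, against 443 with all pools. The log2 fold changes over the 6 omissions of a pool were 1.99 to 2.46 for Gsta3, 1.73 to 2.28 for Gsta4, 1.57 to 2.18 for Gsta1, 1.73 to 2.40 for Cbr3, 0.75 to 0.95 for Abcc3 and -1.62 to -1.23 for Ptgr1. Without Rbm47-IKO-labelled pool 1 Gsta3 alone passed, and without wt pool 1 Abcc3, Gsta1 and Ptgr1 passed. With limma-voom Cbr3 did not pass (adjusted p = 0.0506). With the pool number as a replicate block Gsta4 and Gsta1 passed, and Gsta3, Cbr3, Abcc3 and Ptgr1 did not (adjusted p of 0.053 to 0.0808). The log2 fold changes of those lost were then 2.15, 2.09, 0.86 and -1.47. With the covariate of Y-linked genes none of the 6 passed, their log2 fold changes being 1.96 for Gsta3, 1.68 for Gsta4, 1.57 for Gsta1, 1.68 for Cbr3, 0.83 for Abcc3 and -1.40 for Ptgr1 (adjusted p of 0.074 to 0.112). The part of sex composition in these differences was not tested further. Without the muscle-rich pools 5 of the 6 passed, and Abcc3 did not (0.84, adjusted p = 0.0526). Nothing in the labels says how mice were assigned to pools beyond their genotype, and the p-values measure the spread between pools.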

How the data were processed

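Poly(A) RNA of small intestinal mucosa was sequenced from 6 pools of 3 mice each, 3 pools per genotype, grouped by the genotype in their labels. For each pool the authors deposited a table of the raw count of reads on 38561 genes, with a CPM column and an RPKM column computed from it. A recalculation of both gave the deposited values up to rounding, and only the counts were used. The submitters' processing notes name STAR 2.5.1a, Subread, featureCounts 1.4.6-p5 and GRCm38, and the strand setting is not given in the sources used here. Symbols came from GENCODE M21 (36639 genes matched, the others holding 0.369% of counts). Positions are those of the tables.

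Genes past filterByExpr of edgeR 4.0.16 (16425) were normalized by TMM and tested by the quasi-likelihood test in R 4.3.3 with Benjamini-Hochberg adjustment over all of them, at 0.05 or less. CPM and RPKM in the text use TMM library sizes. The genes named were the 10 members, Rbm47, and the regulators and other targets past the threshold or, where fewer than 4 passed, the 4 with the smallest p, besides examples chosen after their values were seen. The members and all lists were chosen with earlier results of these data known. The 16 alternatives were DESeq2 1.42.0, limma-voom (limma 3.58.1), RLE factors, library size only, no filter, at least 1 CPM in 3 pools, a robust fit, a block on pool number, a Y-linked covariate, removal of both muscle-rich pools, and leaving out each of 6 pools. No pools were identical. The depth was 31560320 to 38951830 counts per pool.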

Additional observations from a re-analysis of the deposited data

How the results depend on the processing

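The direction of Nqo1 (1.35 to 1.86), Gclc, Gclm, Ephx1, Gpx2, Hmox1, Keap1 and Nfe2l2 was kept in all 16 settings, and no result that passed the test reversed. Txnrd1 and Srxn1 were at 0.0 in some settings. Counts of calls moved more. Against 443 genes in all, DESeq2 called 1243, library size only 614, the fit without both muscle-rich pools 327, the Y-linked covariate 59 and leaving out a pool 0 to 431, with 0 called without Rbm47-IKO-labelled pool 2, where the unadjusted edgeR p lay under 0.05 for 1729 genes (2756 with all pools), 32 without Rbm47-IKO-labelled pool 1, 119 without Rbm47-IKO-labelled pool 3 and 11 without wt pool 3. Of the 10 members, 1 passed in the main test, 5 with DESeq2, 2 with library size only, 3 without both muscle-rich pools and 0 to 2 with a pool left out. Of the other targets, 6 passed in the main test, 13 with DESeq2, 0 with the Y-linked covariate, 10 without both muscle-rich pools and 0 to 11 with a pool left out. The regulators stayed at 0 throughout. The cause of these moves was not tested. Correlations of deviations from the genotype mean were 0.408, -0.00258 and -0.277 for same-numbered pools, and from -0.536 to 0.479 for the others. As each mean rests on 3 pools, these values cannot decide whether same-numbered pools were paired. With the pool number as a replicate block, 100 genes, 1 member (Nqo1) and 3 other targets passed (Gsta4, Gsta1 and Gstm3). Gsta3 (adjusted p = 0.053), Cbr3 (0.0612), Abcc3 and Ptgr1 (both 0.0808) were lost. Their log2 fold changes with the block were 2.15, 2.09, 0.86 and -1.47, beside 2.17, 2.11, 0.87 and -1.49 in the main test.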
